A study of Mus musculus with 12 samples.

Results

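Prostaglandin E2 and prostacyclin are made stepwise from arachidonic acid. Transcripts of 10 genes were followed here in pancreatic tumor cells treated or not with DKK3. The genes carry out these steps, break prostaglandin E2 down or receive its signal. The members were the rows of the raw count table named Pla2g4a, Ptgs1, Ptgs2, Ptges, Ptges2, Ptges3, Ptgis, Hpgd, Ptger2 and Ptger4, which are 10 of its 57278 genes. Of these, 8 had counts and all 8 passed the filter on low counts, while Ptgis and Ptger2 had 0 counts in all 12 libraries. The cells were 3 DDKC lines, DDKC_9750, DDKC_9790 and DDKC_9804, grown from pancreatic tumors of Dkk3-/- mice that also carried Ptf1a Cre/+, left untreated or treated with recombinant DKK3 (rDKK3), with 2 libraries for each line and condition. All groups therefore shared the loss of Dkk3 in every cell of the mouse of origin and a Cre under the pancreatic Ptf1a promoter, and the cells grew in medium with serum. The rDKK3 concentration of the RNA samples, the age of the mice and whether the 2 libraries of a pair came from separate cultures are not given in the sources used here.

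Cytosolic phospholipase A2 frees arachidonic acid from membranes, the cyclooxygenases COX-1 and COX-2 turn it into the unstable prostaglandin H2, and terminal synthases convert this into prostaglandin E2 or prostacyclin. COX-1 is usually present without a stimulus, whereas COX-2 is an early response gene with a short-lived mRNA that growth factors and cytokines can induce. Prostaglandin E2 acts on the EP receptors of tumor cells and of the stroma, is taken up and broken down by 15-hydroxyprostaglandin dehydrogenase, and is known in pancreatic cancer for its part in inflammation and immune evasion.

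The untreated libraries held between 7520741 and 24541083 counts and the rDKK3-treated ones between 3822987 and 11567095, so that the floor of 3 counts lay between 0.127 and 0.754 CPM. Here CPM is a count per 1000000 of the library total after that total was multiplied by a normalization factor. Dkk3 itself had 0 counts in every library but 1 treated DDKC_9750 library, which held 1 count. Of the epithelial markers, Krt7, Krt8, Krt18, Krt19 and Cdh1 stood between 207 and 3563 CPM in every line and condition, whereas Epcam reached only 2.04 CPM. With rDKK3, 4 of the 6 epithelial markers were lower and 1 higher in DDKC_9750, 3 lower in DDKC_9790, and 4 lower and 1 higher in DDKC_9804, where 17.9%, 13.9% and 25.3% of all tested genes were lower. The 4 mast cell markers were at 0 in all libraries, the 8 fibroblast markers together held 5.18 to 13.4 CPM, and the 7 leukocyte markers together held 151 to 401 CPM in untreated and 143 to 1032 CPM in treated libraries. Most of this was Cd14, which rose from 383 to 998 CPM in DDKC_9750 and fell from 232 to 127 CPM in DDKC_9804. Cd68 was higher with rDKK3 in all 3 lines. It passed in DDKC_9790 (23.2 to 38.1 CPM) and in DDKC_9804 (2.65 to 6.72 CPM), where Cd14 fell, but not in DDKC_9750. Csf1r stood between 5.8 and 10.2 CPM and passed in no line. Adgre1 and Lyz2 were at 0 and Ptprc and Itgam near 0. The 4 endothelial markers together held 0.97 to 17.4 CPM in the sums, nearly all of it Kdr, which fell from 15.0 to 10.3 CPM in DDKC_9790 and rose from 7.92 to 17.3 CPM in DDKC_9804, and the acinar and platelet markers held at most 11.8 and 4.65 CPM in a sum. The part of these shifts in the results given here was not tested. In RNA of whole cultures, fewer cells that express a gene and less RNA per cell cannot be told apart.

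The sequences in front of the responding genes are shown first, because Ptgs2 with Pla2g4a on one side and Ptgs1 with Ptges2 on the other moved together in DDKC_9750 and DDKC_9804. The RefSeq promoter windows (build GRCm38.p6) run from 250 bases before to 25 bases after the annotated start, and capitals mark matches to any of 10 motifs searched on both strands. Windows were found for 9 of the 10 members, with Pla2g4a listed at 2 starts, of which the outer is shown.
Ptgs2, chr1:150099781-150100055, plus strand: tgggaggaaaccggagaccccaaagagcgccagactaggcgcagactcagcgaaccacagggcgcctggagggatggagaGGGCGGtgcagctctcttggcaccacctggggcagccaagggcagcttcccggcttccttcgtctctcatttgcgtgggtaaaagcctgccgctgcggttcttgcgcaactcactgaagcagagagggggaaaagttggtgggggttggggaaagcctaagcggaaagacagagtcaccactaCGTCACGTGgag
Pla2g4a, chr1:149961266-149961540, minus strand: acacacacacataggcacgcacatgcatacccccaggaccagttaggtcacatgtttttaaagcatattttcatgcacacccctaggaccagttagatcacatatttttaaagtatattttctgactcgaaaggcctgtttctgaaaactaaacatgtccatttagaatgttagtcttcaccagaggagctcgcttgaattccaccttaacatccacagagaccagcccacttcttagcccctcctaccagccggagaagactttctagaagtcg
Ptgs1, chr2:36230176-36230450, plus strand: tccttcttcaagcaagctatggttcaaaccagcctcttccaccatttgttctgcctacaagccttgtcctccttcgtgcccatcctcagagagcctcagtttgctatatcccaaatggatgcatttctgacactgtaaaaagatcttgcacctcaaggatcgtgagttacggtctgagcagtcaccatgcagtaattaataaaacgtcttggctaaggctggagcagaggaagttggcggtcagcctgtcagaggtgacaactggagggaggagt
Ptges2, chr2:32395640-32395914, plus strand: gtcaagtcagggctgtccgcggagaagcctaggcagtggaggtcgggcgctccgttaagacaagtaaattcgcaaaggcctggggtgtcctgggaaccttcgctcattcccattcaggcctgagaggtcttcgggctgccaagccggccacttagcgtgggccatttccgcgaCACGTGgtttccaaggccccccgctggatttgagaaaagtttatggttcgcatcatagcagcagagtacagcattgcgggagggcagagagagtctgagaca

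The Ptgs2 window held the core of a cAMP response element (TGACG, read on the opposite strand as CGTCA) at bases 14 to 18 after the start and an E-box (CACGTG) at bases 17 to 22, so that the matches overlapped, and a GC box (GGGCGG) 170 to 165 bases before the start. These positions count from the RefSeq start, which may lie upstream of the main start of Ptgs2. Over all 32851 windows of this length, the core was found in 19.7%, the E-box in 6.7% and the GC box in 34.4%. The Ptges2 window held an E-box 77 to 72 bases before the start, and those of Ptgs1 and Pla2g4a (outer start) held none of the 10 motifs. The others searched were the full element TGACGTCA (1.7% of windows), the TATA box TATAAA (13.0%), the AP-1 site TGANTCA (7.3%), the kappaB-like sites GGG and TTTCC spaced by 2 bases (1.5%) and GGG and TCCC spaced by 3 bases (5.2%), the C/EBP-like site TTNNGCAAT (2.1%) and the STAT-like site TTCNNNGAA (7.7%). In the remaining windows, the inner start of Pla2g4a held a TATA box 200 to 195 bases before it, Ptges held 2 GC boxes, Ptger4 held 4, Hpgd held a TATA box and a GC box, and Ptger2 held no motif. Ptges3 held 3 GC boxes, 1 of which overlapped a match to the second kappaB-like form, and the core TGACG. A match says only that the letters are present.

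Ptgs2 and Pla2g4a are neighbours on chromosome 1 (GRCm39), where 138740 bases without a protein-coding gene separate the end of Pla2g4a (ENSMUSG00000056220.15, chr1:149705369-149837041, minus strand) from the start of Ptgs2 (ENSMUSG00000032487.9, chr1:149975782-149983978, plus strand). The 3' untranslated region of Ptgs2 carried 14 copies of ATTTA, the core of AU-rich elements that shorten the life of an mRNA, in 2445 bases, and 96.6% of 11947 tested protein-coding genes had fewer. Its densest stretch, which begins at base 12 after the stop codon and is shown for the element that RNA-binding proteins of the Zfp36 family recognize, holds 4 copies (capitals).
Ptgs2 AU-rich stretch, chr1:149981545-149981574 (GRCm39, plus strand): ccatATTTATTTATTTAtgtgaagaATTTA

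Pla2g4a had 4 copies of ATTTA in 443 bases, a higher density than in 99.3% of these genes, and Ptgs1 and Ptges had 0 in 921 and 3106 bases. The median over the genes was 2 copies. Dense pentamers were not particular to Ptgs2 and Pla2g4a, since Hpgd, Ptger4, Ptges3 and Ptger2 had a higher density than 93.9%, 90.7%, 85.2% and 84.4% of these genes, beside 96.4% for Ptgs2.

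Corrected for exon length, the members ranked differently from line to line. Ptges3, which encodes the cytosolic prostaglandin E synthase also known as the HSP90 co-chaperone p23, stood at 74.5 to 91.8 CPM per kb in all 6 sums of a line and condition. Ptgs1 was the highest member in DDKC_9790, at 119 CPM per kb untreated, but stood at 39.4 in untreated DDKC_9804 and 8.73 in untreated DDKC_9750. Pla2g4a lay between 24.0 and 45.0 CPM per kb. Ptgs2 was low, at 3.05 to 7.30 CPM per kb, in every sum but rDKK3-treated DDKC_9804, where it reached 40.8 CPM per kb and stood beside Ptgs1 (48.6) and Pla2g4a (45.0).

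Ptges, which encodes the inducible membrane-bound synthase, ranged from 13.3 CPM per kb in untreated DDKC_9750 to 0.49 in untreated DDKC_9804, and Ptges2 lay at 3.10 to 3.52 CPM per kb in the untreated lines. Of the receptors, Ptger4 (EP4) lay at 0.34 to 4.31 CPM per kb, and Ptger2 (EP2) was not detected, with all 12 libraries at 0 counts. Hpgd, the gene of the dehydrogenase, lay at or below 0.10 CPM per kb in all sums but treated DDKC_9750 (0.69). The gene of prostacyclin synthase, Ptgis, had 0 counts throughout, and each of these zeros allows up to the floor of its library.

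**Figure D1:**
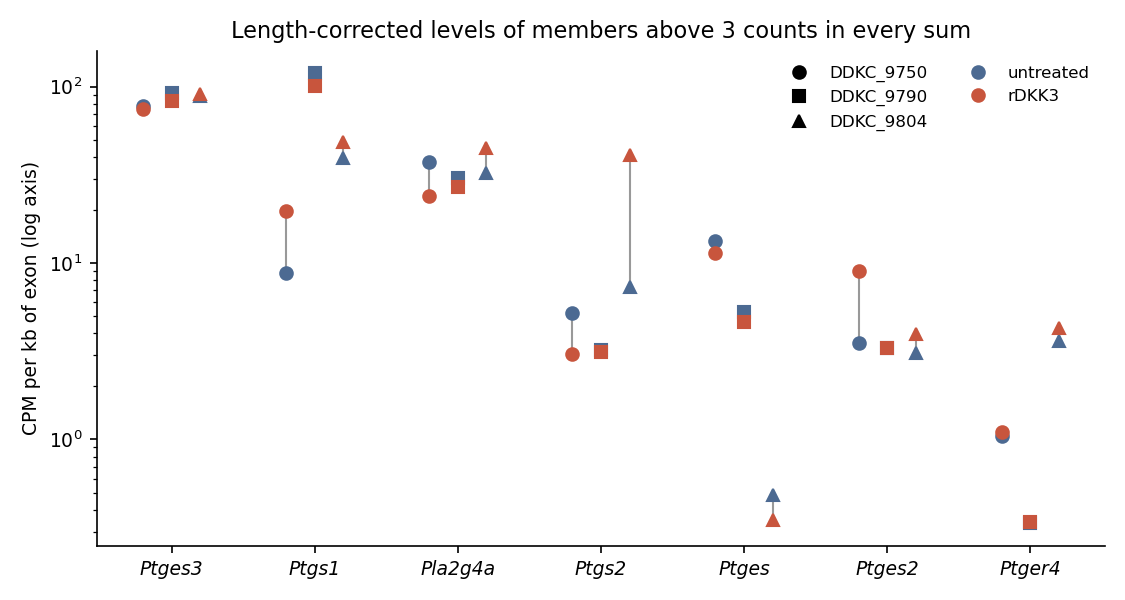
CPM per kb of exon (log axis) of the 7 members with 3 or more counts in every sum of a line and condition, with blue for untreated, red for rDKK3, and a shape for each line. Ptges3 stayed between 74.5 and 91.8 CPM per kb, whereas Ptgs1 and Ptges differed widely between lines and Ptgs2 stood high only in treated DDKC_9804.

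Without treatment, the lines differed most, among the members, in the synthase Ptges and the cyclooxygenase Ptgs1, and in different orders. Ptgs1 (ENSMUSG00000047250.14, chr2:36120438-36142284, plus strand) stood at 27.4 and 23.9 CPM in the untreated libraries of DDKC_9750, at 358 and 335 CPM in those of DDKC_9790 and at 113 and 113 CPM in those of DDKC_9804. The summed levels spanned 13.7-fold, and no library of one line overlapped with another line. Ptges (ENSMUSG00000050737.14, chr2:30779483-30819875, minus strand) stood at 57.6 and 56.0 CPM in DDKC_9750, at 24.3 and 21.4 CPM in DDKC_9790 and at 2.03 and 2.07 CPM in DDKC_9804. Its summed levels spanned 27.4-fold, also without overlap, and the pseudogene Gm13400 that overlaps Ptges on the same strand was given 6 counts in all. The log2 range of Ptges between untreated lines was wider than that of 96.5% of the 15165 tested genes, and that of Ptgs1 wider than that of 93.7%.

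Ptger4 stood at 3.41 and 3.57 CPM in untreated DDKC_9750, at 1.93 and 0.75 CPM in DDKC_9790 and at 13.4 and 11.3 CPM in DDKC_9804, a 10.7-fold span of the sums without overlap between lines. Ptgs2 stood at 16.1 CPM in untreated DDKC_9790, 26.1 CPM in DDKC_9750 and 36.5 CPM in DDKC_9804, and Pla2g4a at 93.1, 114 and 99.2 CPM. In edgeR's quasi-likelihood test over the 6 group means, 5 of 8 members (Ptgs1, Ptges, Ptger4, Ptgs2 and Pla2g4a) differed between untreated lines, with adjusted p from 8.60e-11 to 9.48e-05, where 80.5% of all tested genes did. Ptges2, Ptges3 and Hpgd did not pass, with adjusted p of 0.179, 0.809 and 0.0608. This fit measures lines against the spread of 2 libraries, and cultures of a line may differ by more.

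Ordered by level, all 3 lines could be told apart for Ptgs1, Ptges, Ptgs2 and Ptger4, with adjusted p of at most 0.00274 in each of the 3 pairs by the same edgeR test. Between DDKC_9790 and DDKC_9750, 5 of 8 members passed (67.5% of all genes), between DDKC_9804 and DDKC_9750 6 of 8 (58.5%), and between DDKC_9804 and DDKC_9790 4 of 8 (65.7%). The 6 were Pla2g4a, Ptgs1, Ptgs2, Ptges, Ptger4 and Hpgd (edgeR adjusted p = 0.0347 for Hpgd). Hpgd passed the filter on low counts only through treated DDKC_9750, so its call is no independent test. For Pla2g4a, DDKC_9804 and DDKC_9790 did not differ beyond the spread of the libraries (log2 difference 0.09, adjusted p = 0.0536), and DESeq2 did not call DDKC_9804 against DDKC_9750 (adjusted p = 0.0582). For Ptges2 no pair passed, and the untreated sums lay within 16.5 to 18.7 CPM.

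Across the 3 lines, no member passed the test for a change with rDKK3. The question was whether treatment of Dkk3-null tumor cells, a stand-in for DKK3 from the stroma, moved the pathway in the same way in each line, with the 2 libraries of a pair summed and 3 lines compared as pairs. By edgeR's quasi-likelihood test, 0 of 8 members passed an adjusted p of 0.05, where 1 gene in all, 0.00659% of those tested, did. At an unadjusted p under 0.05 there were 0 of 8 members and 8.53% of all genes, and DESeq2 on the same sums also called 0 members. The median log2 fold change was 0.27 over the 8 members and -0.01 over all genes tested.

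Ptgs2 had the log2 fold change 0.55 (SE 0.67, adjusted p = 0.824), which turned to -0.41 when DDKC_9804 was left out, and was higher in 1 of 3 lines. Pla2g4a had -0.11 (SE 0.22, adjusted p = 0.889), which turned to 0.15 without DDKC_9750. Ptges was lower in 3 of 3 lines, where 32.4% of all genes kept one direction. Ptges2 and Ptger4 had no settled direction in DDKC_9790, where their libraries overlapped and the sums lay marginally higher while edgeR's log2 fold changes were -0.01 and -0.02. Ptges had a log2 fold change of -0.26 (SE 0.14, adjusted p = 0.637). This passed when the 12 libraries entered edgeR singly (adjusted p = 0.0231), a fit that calls 18.1% of all genes (10.1% lower) and treats libraries as if they were separate cultures. Ptges2 had 0.57 (SE 0.28, adjusted p = 0.626) and Ptgs1 0.41 (SE 0.28, adjusted p = 0.699). Over lines, Ptges3 averaged 173 CPM ± 14.5 (SD, n = 3) untreated and 166 CPM ± 16.5 treated, and Ptger4 5.53 CPM ± 5.72 and 6.39 CPM ± 7.01.

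**Figure D2:**
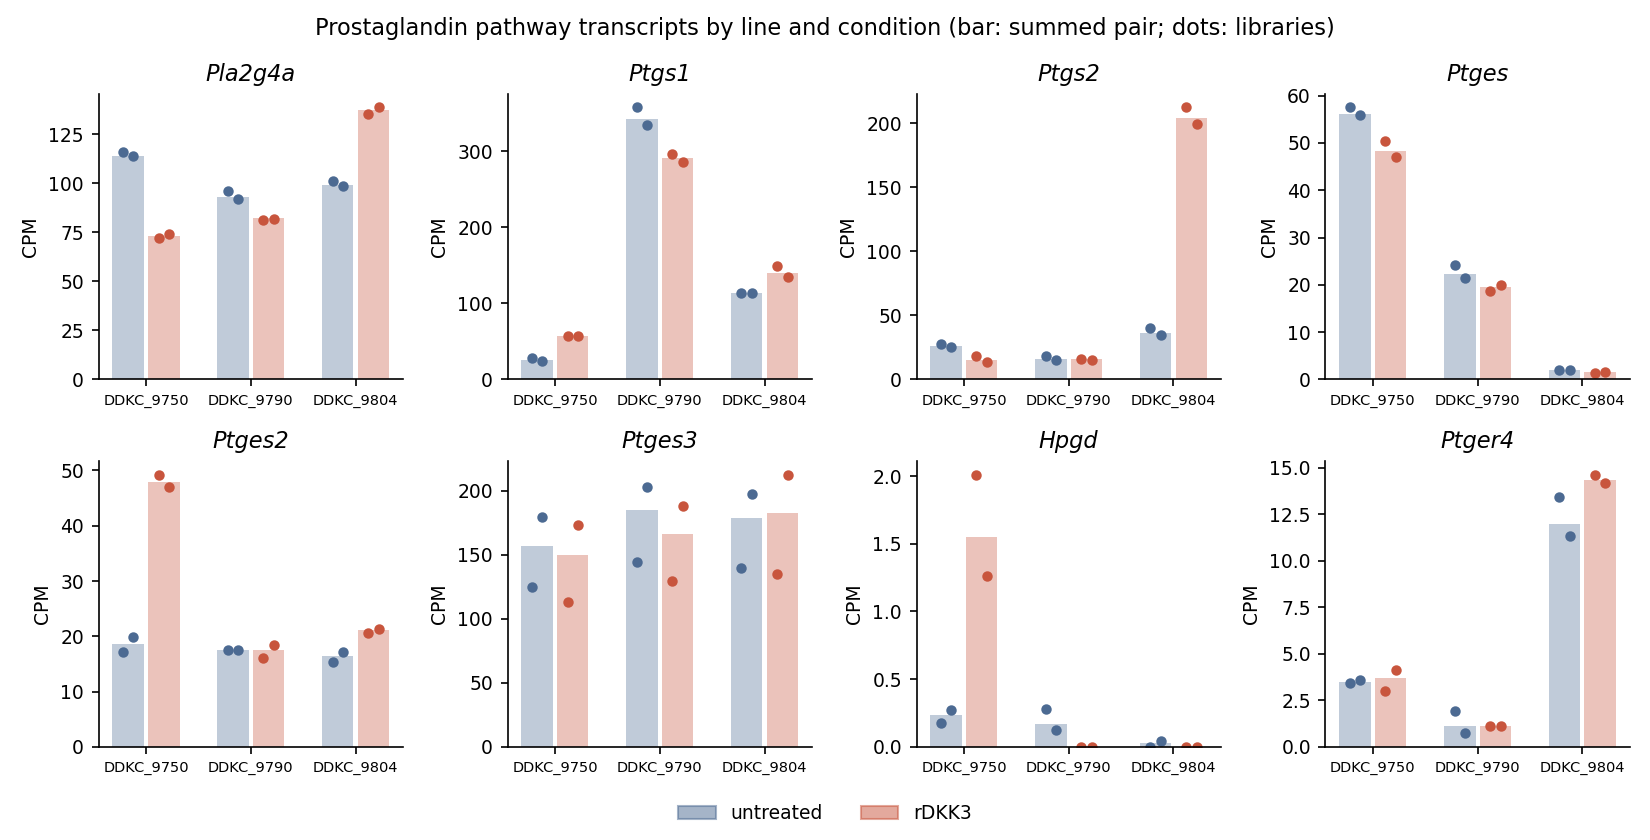
CPM of the 8 detected members in each line, with bars for the summed pair of libraries, dots for single libraries, blue for untreated and red for rDKK3. Ptgs2 rose from 36.5 to 204 CPM in DDKC_9804 and fell from 26.1 to 15.2 CPM in DDKC_9750, and Ptges3 dots differ between the libraries of a pair in all groups.

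Within lines, members changed, and Ptgs2 and Pla2g4a in opposite directions in DDKC_9750 and DDKC_9804, in tests that compare libraries only. In DDKC_9750, 6 of 8 members passed (Pla2g4a, Ptgs2 and Ptges lower, Ptgs1, Ptges2 and Hpgd higher), where 35.8% of all genes did, 17.9% lower and 17.9% higher. Hpgd passed the filter on low counts only through the treated DDKC_9750 libraries, where it was high, so its calls are no independent tests, and 5 of 7 members passed without it. In DDKC_9790, 2 of 8 passed (Pla2g4a and Ptgs1, both lower), where 26.2% did, 13.9% lower and 12.3% higher. In DDKC_9804, 4 of 8 passed, all higher (Ptgs2, Pla2g4a, Ptges2 and Ptgs1), where 45.4% did, 20.1% higher and 25.3% lower. The median log2 fold changes over the members were -0.01, -0.16 and 0.27, and over all genes -0.02, -0.01 and -0.04. The share of members called in DDKC_9790 and DDKC_9804 was thus near that of all genes.

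In DDKC_9804 Ptgs2 had the largest change of the members above the floor there, whereas in DDKC_9750 Ptges2 and Ptgs1 changed by more. In DDKC_9804 it stood at 40.2 and 34.8 CPM untreated and at 212 and 199 CPM with rDKK3, so that the summed level rose 5.59-fold (95% exact interval of counting error 5.23 to 5.99). In DDKC_9750 it stood at 27.4 and 25.6 CPM untreated and fell to 18.3 and 13.3 CPM with rDKK3. In DDKC_9790 the untreated libraries, at 18.2 and 15.2 CPM, and the treated ones, at 16.1 and 15.3 CPM, overlapped. The log2 fold changes in edgeR's fit were 2.47 (SE 0.10, adjusted p = 9.23e-08) in DDKC_9804, -0.78 (SE 0.14, adjusted p = 0.00185) in DDKC_9750 and -0.07 (SE 0.14, adjusted p = 0.799) in DDKC_9790.

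Pla2g4a, the gene of the phospholipase that feeds both cyclooxygenases, moved the same way as Ptgs2 in DDKC_9750 and DDKC_9804, and also passed in DDKC_9790, where Ptgs2 did not. It stood at 101 and 98.7 CPM in untreated DDKC_9804 and at 135 and 139 CPM with rDKK3, a 1.38-fold rise. In DDKC_9750 it fell from 116 and 114 CPM to 72.1 and 73.9 CPM, and in DDKC_9790 from 95.8 and 91.9 CPM to 81.4 and 82.0 CPM. Treated and untreated libraries did not overlap in any line. In edgeR the log2 fold change was 0.46 in DDKC_9804 (adjusted p = 6.54e-06), -0.65 in DDKC_9750 (9.28e-07) and -0.20 in DDKC_9790 (0.00462). DESeq2 did not call the change in DDKC_9790 (adjusted p = 0.167). Both Ptgs2 and Pla2g4a were thus lower in DDKC_9750 and higher in DDKC_9804, each past the threshold, as were 4.91% of all tested genes.

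COX-1 and COX-2 transcripts did not move in parallel in DDKC_9750. Ptgs1 rose there from 27.4 and 23.9 CPM to 57.5 and 56.7 CPM (2.27-fold, log2 fold change 1.16, SE 0.08, edgeR adjusted p = 1.96e-06), while Ptgs2 fell. In DDKC_9804 it rose from 113 and 113 CPM to 149 and 134 CPM (log2 0.32, adjusted p = 0.00310), and in DDKC_9790 it fell from 358 and 335 CPM to 297 and 286 CPM (log2 -0.25, adjusted p = 0.0166). Ptgs1 was below its DDKC_9790 level in both other lines in either condition.

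The balance of the 2 cyclooxygenases shifted accordingly. Of the length-corrected sum of both transcripts, Ptgs2 made up 37.4% in untreated DDKC_9750 (36.5 and 38.1% in the libraries) and 13.3% with rDKK3 (11.9 and 15.5%). In DDKC_9804 the share went from 15.6% (15.0 and 16.95%) to 45.6% (45.0 and 46.1%). In DDKC_9790 it was 2.63% untreated (2.53 and 2.84% in the libraries) and 2.99% treated (2.98 and 3.02%). The libraries there did not overlap, but the exact intervals of the sums, 2.37 to 2.91% and 2.66 to 3.36%, did. These shares compare transcripts within a library and do not depend on its total.

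**Figure D3:**
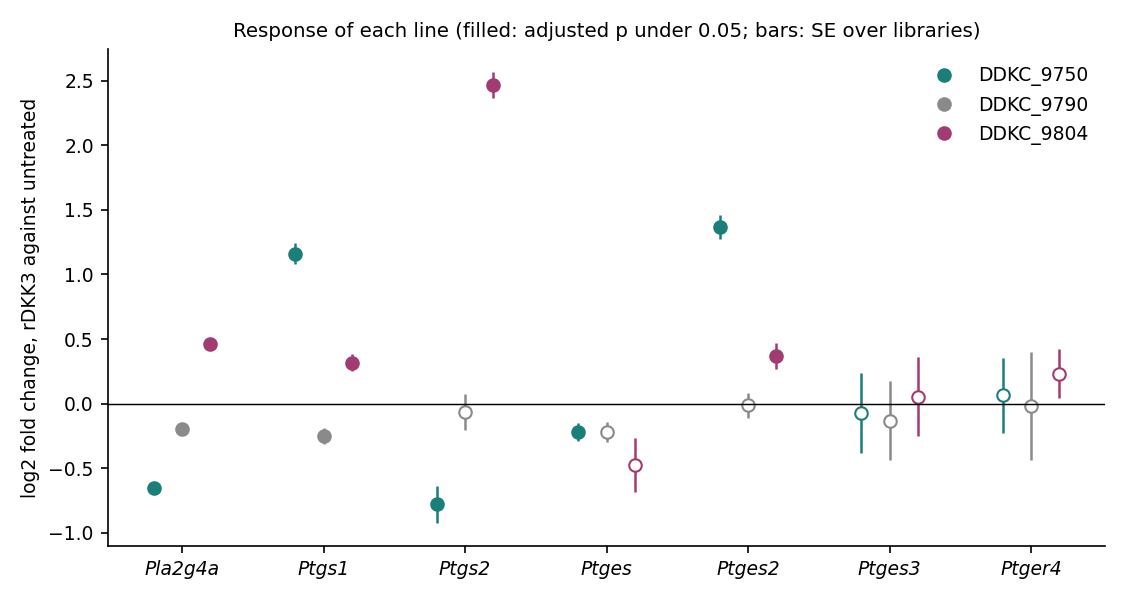
Log2 fold change of rDKK3 against untreated libraries for 7 members in each line, with the SE over libraries as bars and filled points for an adjusted p under 0.05 in edgeR. Ptgs2 and Pla2g4a lie above 0 in DDKC_9804 and below 0 in DDKC_9750, while Ptgs1 and Ptges2 lie above 0 in both. Hpgd was left out because it is at 0 in treated DDKC_9790 and DDKC_9804.

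Among the terminal synthases, Ptges2 changed and Ptges3 did not pass in any line. Ptges2 (ENSMUSG00000026820.6, chr2:32285908-32295784, plus strand) rose in DDKC_9750 from 17.2 and 19.8 CPM to 49.2 and 47.1 CPM, which is 2.56-fold (2.27 to 2.90) and a log2 fold change of 1.37 (SE 0.09, edgeR adjusted p = 1.66e-06). In DDKC_9804 it rose from 15.3 and 17.1 CPM to 20.7 and 21.4 CPM (log2 0.37, adjusted p = 0.0124 in edgeR), a call that DESeq2 did not make (adjusted p = 0.139). In DDKC_9790 the treated libraries, at 16.1 and 18.4 CPM, enclosed the untreated ones at 17.5 and 17.6 CPM.

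Ptges fell in DDKC_9750 from 57.6 and 56.0 CPM to 50.5 and 47.1 CPM (log2 -0.22, edgeR adjusted p = 0.0314), which DESeq2 did not call (adjusted p = 0.588). In DDKC_9790 it stood at 24.3 and 21.4 CPM untreated and 18.6 and 19.99 CPM treated, and in DDKC_9804 at 2.03 and 2.07 against 1.29 and 1.59 CPM. The libraries did not overlap in any line, but the differences in DDKC_9790 and DDKC_9804 did not pass. Ptges3 (ENSMUSG00000071072.13, chr10:127894823-127913141, plus strand) ranged from 113 to 212 CPM over the 12 libraries, and in every pair the library with the higher library number held more, by 0.54 on the log2 scale, a larger shift than in 96.6% of genes. Its SE within lines was 0.30 to 0.31, and with the library number series in the model its log2 difference of -0.13 in DDKC_9790 passed (edgeR adjusted p = 0.00135). Without the filter on low counts it passed there too (log2 -0.17, edgeR adjusted p = 0.0404). Its pseudogene Ptges3-ps held 0.35 to 1.51 CPM in the libraries with the lower number of each pair and 5.37 to 9.67 CPM in those with the higher, and the part of reads that fit both genes was not tested.

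Of the breakdown and receptor genes, Ptger4 passed in no line, and Hpgd passed only in DDKC_9750, whose treated libraries alone had brought it past the filter. Hpgd (ENSMUSG00000031613.10, chr8:56747620-56774078, plus strand) had 2 and 5 counts in untreated and 8 and 8 counts in treated DDKC_9750, a 6.67-fold higher summed CPM with an exact 95% interval of 2.60 to 19.2 (edgeR adjusted p = 0.00621). DESeq2 did not call it (adjusted p = 0.328). DDKC_9790 had 2 and 2 counts untreated and 0 and 0 treated, and DDKC_9804 had 0 and 1 against 0 and 0, so that no fold change can be given there at this depth. Ptger4 (ENSMUSG00000039942.16, chr15:5236142-5273668, minus strand) kept within 3.02 to 4.11 CPM in DDKC_9750, 0.75 to 1.93 CPM in DDKC_9790 and 11.3 to 14.6 CPM in DDKC_9804, and its log2 fold changes of 0.06, -0.02 and 0.23 did not pass. It overlaps Ttc33 on the opposite strand, and counting was strand-specific.

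The test of the difference itself, the interaction of line and treatment in edgeR, was passed by 5 of 8 members, where 49.3% of all genes passed it, and by 4 of 7 without Hpgd, which was tested only because of treated DDKC_9750. Ptgs2 had the adjusted p 6.51e-07, Pla2g4a 7.08e-07, Ptgs1 8.67e-06, Ptges2 5.00e-05 and Hpgd 0.0152. For Ptges (0.837), Ptger4 (0.871) and Ptges3 (0.946) a difference in response between lines was not detectable.

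Other genes of prostanoid metabolism were counted from a list of 20, of which 18 were in the table and 13 were tested. In edgeR's comparison over 3 lines 0 of 13 passed (3 at an unadjusted p under 0.05, as did 8.53% of all genes). The median log2 fold change was 0.21 beside -0.01 over all genes. Within DDKC_9750 5 rose and 2 fell, within DDKC_9790 3 rose and 4 fell, and within DDKC_9804 2 rose and 3 fell, where 35.8%, 26.2% and 45.4% of all genes passed in either direction. The 5 include the receptor gene Ptgfr, which had 2 counts untreated and 18 treated (1.74 CPM) in DDKC_9750. In every other sum Ptgfr stood at 0.11 CPM or less, so it passed the filter on low counts only through treated DDKC_9750. Its call there is no independent test, and it is also among the 3 at an unadjusted p under 0.05. Slco2a1, the prostaglandin transporter that takes prostaglandin E2 into the cell, rose from 11.5 to 40.9 CPM in DDKC_9750 and from 116 to 152 CPM in DDKC_9790, and stood at 258 and 259 CPM in DDKC_9804. Abcc4, an exporter of prostaglandins, rose from 88.4 to 131 CPM in DDKC_9804 and from 167 to 187 CPM in DDKC_9750. Ptgr1, a reductase that acts after Hpgd, fell in all 3 lines, from 88.4 to 52.7, 42.2 to 32.9 and 44.9 to 36.2 CPM.

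Ptger1, the EP1 receptor gene, was detected in every line, at 52.3, 28.6 and 48.7 CPM in untreated DDKC_9750, DDKC_9790 and DDKC_9804 and 64.7, 36.5 and 39.9 CPM with rDKK3. The difference with rDKK3 passed in no single line (edgeR adjusted p of 0.0684, 0.0552 and 0.0682), whereas the interaction of line and treatment did (0.0146), as did the difference between untreated lines (7.16e-05). Ptger3 (EP3) had 0 counts in untreated cells and 6 counts (0.58 CPM) in the summed treated libraries of DDKC_9750. Ptgds, the prostaglandin D synthase, ran in the order of Ptges across untreated lines, at 49.2, 2.66 and 1.60 CPM, and fell with rDKK3 to 35.1 CPM in DDKC_9750 and 1.08 CPM in DDKC_9790.

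In the list of other phospholipase A2 and arachidonate handling genes, 15 of 28 in the table were tested and 0 passed in edgeR over the 3 lines. At an unadjusted p under 0.05 there were 3, beside 8.53% of all genes. The median log2 fold change was -0.16, beside -0.01 over all genes. In DDKC_9750 2 rose and 4 fell, in DDKC_9790 1 rose and 4 fell, and in DDKC_9804 3 rose and 9 fell, where 20.1% of all genes rose and 25.3% fell in DDKC_9804, and 35.8% and 26.2% passed in the other 2 lines. The 9 include Mgll, which fell from 3.90 to 0.57 CPM and stood no higher than 0.57 CPM in any sum but untreated DDKC_9804. It was above the filter on low counts in that group, where it was high, so its call is no independent test. Acsl4, which loads arachidonate onto coenzyme A, rose from 176 to 292 CPM in DDKC_9750 and from 251 to 334 CPM in DDKC_9804, and Anxa1, an inhibitor of phospholipase A2 activity, fell in all 3 lines (248 to 223, 433 to 285 and 760 to 586 CPM). Of the lipoxygenase and leukotriene genes 4 of 17 were tested, 0 passed over lines (1 unadjusted, beside 8.53% of all genes, median -0.34), and 0 rose within any line while 1, 2 and 2 fell in DDKC_9750, DDKC_9790 and DDKC_9804. The leukotriene A4 hydrolase gene Lta4h fell in all 3 lines, where 17.9%, 13.9% and 25.3% of all genes fell. Alox15 was at 0 throughout.

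Of 22 genes of EP receptor signalling and its targets, 21 were tested and 0 passed in edgeR over lines. At an unadjusted p under 0.05 there were 4, beside 8.53% of all genes. The median log2 fold change was -0.09, beside -0.01 over all genes. Within DDKC_9750 5 rose and 4 fell, within DDKC_9790 1 rose and 5 fell, and within DDKC_9804 5 rose and 11 fell, beside 35.8%, 26.2% and 45.4% of all genes that passed. Areg, which encodes the growth factor amphiregulin, fell from 27.5 to 7.56 CPM in DDKC_9750, stood at 194 and 176 CPM in DDKC_9790 and rose from 63.6 to 173 CPM in DDKC_9804 (edgeR interaction adjusted p = 1.40e-07). Nr4a2 rose from 8.35 to 17.3 CPM in DDKC_9804. Akap12, a scaffold for protein kinase A, rose from 0.34 to 11.6 CPM in DDKC_9804 and from 0.73 to 3.97 CPM in DDKC_9750, and Pde4b, a cAMP phosphodiesterase, from 0.23 to 9.30 CPM in DDKC_9750. Pde4b stood at 0.33 CPM or less in every other sum, so it passed the filter on low counts only through treated DDKC_9750. Akap12 stood at 0.73 CPM or less in untreated sums and passed the filter through treated libraries where it was high. Their calls, which the counts above include, are no independent tests. Of those that fell in DDKC_9804, Pde4d, another cAMP phosphodiesterase, went from 65.4 to 38.6 CPM, the arrestin gene Arrb1 from 28.6 to 9.59 CPM and Nr4a1 from 43.2 to 34.3 CPM, and Pde4d also fell from 81.9 to 35.3 CPM in DDKC_9750.

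Of the 10 genes whose proteins act on the stability or translation of AU-rich mRNAs, all were tested and 0 passed in edgeR over lines (2 at an unadjusted p under 0.05, as did 8.53% of all genes, median 0.01). Within DDKC_9750 4 rose and 3 fell, within DDKC_9790 5 rose and 1 fell, and within DDKC_9804 4 rose and 3 fell, where 35.8%, 26.2% and 45.4% of all genes passed. Zfp36, which encodes the decay factor tristetraprolin, moved opposite to Ptgs2, rising from 64.1 to 130 CPM in DDKC_9750 and falling from 74.5 to 33.4 CPM in DDKC_9804, with 50.2 and 53.2 CPM in DDKC_9790 (edgeR interaction adjusted p = 5.86e-08). Zfp36l1 rose from 408 to 553 CPM in DDKC_9750 and from 270 to 308 CPM in DDKC_9790, and fell from 254 to 133 CPM in DDKC_9804. Zfp36l2 fell in DDKC_9750 (389 to 301 CPM) as in DDKC_9804 (1326 to 944 CPM), and rose in DDKC_9790 (517 to 563 CPM, edgeR adjusted p = 0.0215). Khsrp moved the same way as Ptgs2, falling in DDKC_9750 (280 to 249 CPM) and rising in DDKC_9804 (274 to 300 CPM). It also rose in DDKC_9790 (278 to 305 CPM). Hnrnpd fell in DDKC_9750 (227 to 192 CPM) and DDKC_9790 (155 to 135 CPM). Elavl1, the stabilizing factor HuR, stood at 90.5 to 127 CPM and passed in no line. Tia1, which encodes a translational repressor, rose in all 3 lines, from 42.9 to 50.6, 27.5 to 40.1 and 41.5 to 49.1 CPM. Celf2 rose from 17.4 to 36.4 CPM in DDKC_9804, and Cpeb1 from 5.64 to 9.98 CPM in DDKC_9750 and from 9.51 to 18.0 CPM in DDKC_9804. With 3 lines, whether the levels of these genes and of Ptgs2 are linked was not tested.

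**Figure D4:**
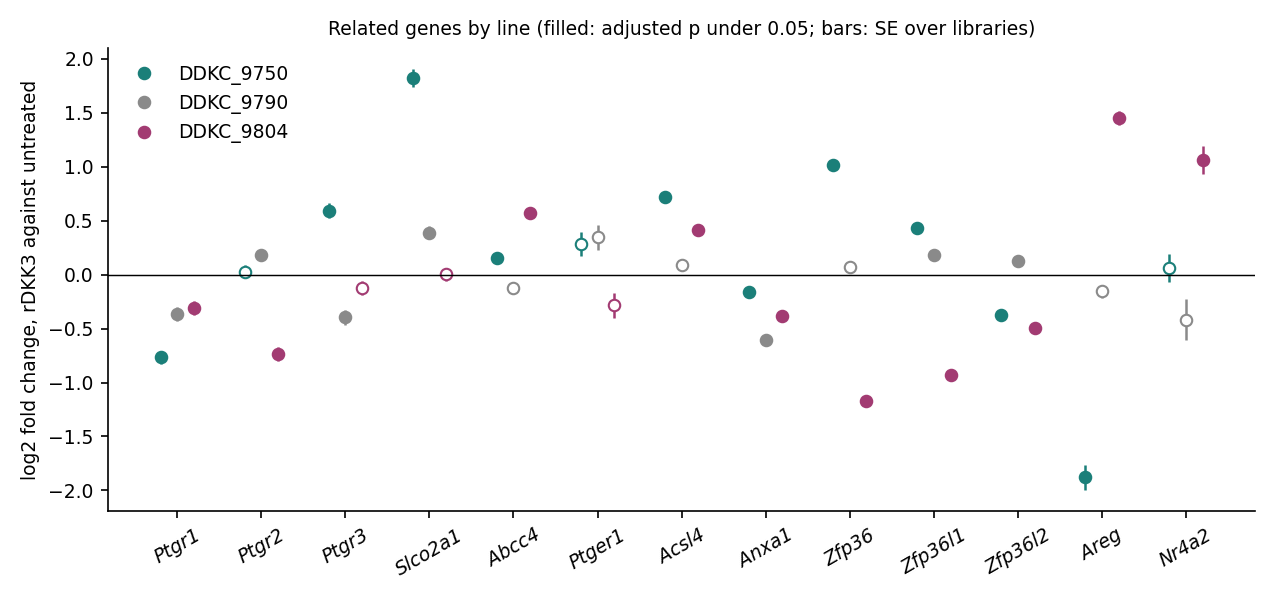
Log2 fold change of rDKK3 against untreated libraries in each line for 13 genes of prostaglandin transport, breakdown, arachidonate handling, AU-rich mRNA binding and EP receptor response, with the SE over libraries as bars and filled points for an adjusted p under 0.05 in edgeR. Zfp36 and Zfp36l1 lie above 0 in DDKC_9750 and below 0 in DDKC_9804, Areg lies the other way round, and Ptgr1 lies below 0 in all lines.

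The protein-coding genes with the pattern most like a member over the 6 sums, among 11377 compared, were as follows, with Pearson's r as a description of 6 points that share lines. For Ptgs2 they were Cul3 (r = 0.993), Ppm1a (0.990) and Ralgapa1 (0.989). Their spans were far smaller, with Cul3 between 143 and 202 CPM. For Ptgs1 they were Mavs (0.994), Golga2 (0.992) and Fbxw4 (0.991). As many as 221 and 400 genes reached r above 0.9 with Ptgs2 and Ptgs1, and Hpgd was too low to compare.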

How the data were processed

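Strand-specific RNA libraries were sequenced and aligned by the authors with STAR 2.7.9a to GRCm39 on the basic GENCODE annotation, counted by gene with GenomicAlignments, ignoring secondary alignments, and deposited as raw counts without normalization. Each of the 12 value columns was matched to a library by name. Counts were analysed in R 4.3.3 with edgeR 4.0.16 (quasi-likelihood test, TMM, Benjamini-Hochberg over all 15165 genes kept by filterByExpr, threshold 0.05), and DESeq2 1.42.0 as an alternative. The main comparison summed the 2 libraries of each line and condition and kept the line as block, since libraries of a pair differed by less than sampling noise once a shift between lower and higher library numbers was allowed for (mean deviance per degree of freedom 0.780). Without that shift the value was 6.44, so the libraries of a pair then differed by more than sampling noise. The line in the labels gives the pairing, and deviations of samples of a line correlated at 0.834 on average. A second fit of 6 group means over 12 libraries gave changes within lines, their interaction and differences between untreated lines. It did not contain the shift, which entered only as an alternative. Where the libraries of a pair were not separate cultures, its p-values measure technical spread only.

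CPM values are counts per 1000000 of the library total multiplied by its TMM normalization factor. These factors lay between 0.948 and 1.04 in the 12 libraries. A log2 CPM used a prior count of 2, and intervals cover counting error only, at 95%. Exon lengths and untranslated regions came from a later GENCODE release on GRCm39, and promoter sequences from RefSeq. The tests were also run on simulated data. For the comparison over lines these held the same change in every line, so that run does not cover responses that differ between lines. The members and gene lists were chosen with earlier results of these data known. Genes named from the lists, leaving aside the cell type markers, had at least 1 CPM in a sum. Exceptions were Ptger3 and Alox15, named for their low or absent counts. The genes most like Ptges and part of the genotype are not reported here. Alternatives covered single libraries, the library number series, no block, RLE normalization, DESeq2, no filter, and leaving out lines or libraries.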

Additional observations from a re-analysis of the deposited data

Results flagged for a closer look

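The response to rDKK3 differed between the 3 lines for 5 members, by the edgeR test of the line-by-treatment interaction, which compares libraries. The adjusted p-values were 6.51e-07 for Ptgs2, 7.08e-07 for Pla2g4a, 8.67e-06 for Ptgs1, 5.00e-05 for Ptges2 and 0.0152 for Hpgd, which had at most 8 counts in a library and passed the filter on low counts only through treated DDKC_9750, so that its value is no independent test. Among all genes 49.3% passed the same test. Depth moved with treatment, since both treated libraries of DDKC_9750 and DDKC_9804 held fewer counts than the untreated ones, and its part in these differences was not tested.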

How the results depend on the processing

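Over the 3 lines, the members called stayed at 0 with RLE normalization, DESeq2, no filter on low counts, each line left out and each library of the pairs left out (lowest 0, highest 0), and became 1 (Ptges) when the 12 libraries entered singly, with or without the library number series. The genes called in all were 2744 and 3124 in those 2 fits, 90 without the filter and 95 with DESeq2, and 0 to 6 when lines or libraries were left out (0 without DDKC_9750, 0 without DDKC_9790, 2 without DDKC_9804, 1 and 6 with single libraries). The fit with no replicate block, unpaired, called 0 members and 0 genes. The log2 fold change over lines reversed for Pla2g4a (0.15) without DDKC_9750, for Ptgs2 (-0.41) without DDKC_9804 and for Ptger4 (-0.16) without the higher-numbered libraries. Leaving out lines or libraries in turn, Ptgs2 ranged from -0.41 to 1.31 and Ptger4 from -0.16 to 0.35. For Hpgd the fit without DDKC_9750 returned -4.43, which is no measured fold change because all treated libraries left were at 0 counts, and the other such fits gave 1.02 to 2.22. Within lines, values near 0 reversed for Ptger4 in DDKC_9750 without the filter (-0.0040) and, with the library number series, for Ptges2 (0.0019) and Ptger4 (0.0032) in DDKC_9790. DESeq2 called fewer genes within DDKC_9750 (2794), DDKC_9790 (1259, with 1 member), DDKC_9804 (3698), between untreated DDKC_9804 and DDKC_9750 (5563) and for the interaction (3678), and the library number series raised DDKC_9790 to 6066. The causes were not tested. Depth limits Hpgd, which had 8 counts or fewer in every library.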
